A study of Mus musculus with 6 samples.

Results

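The genes described here are 10 genes of glycolysis and lactate exchange (Slc2a1, Hk1, Hk2, Pfkfb3, Pkm, Ldha, Ldhb, Pdk1, Slc16a1 and Slc16a3), chosen by symbol from the 32285 genes of the deposited tables, and all 10 were found there. They were measured by single-nucleus RNA sequencing in retinas of rd10 mice (strain B6.CXB1-Pde6b-rd10/J), a model of inherited retinal degeneration in which rods die first because of a mutation in the rod phosphodiesterase gene Pde6b. Every group carried the rd10 mutation, so no healthy retina enters the comparison. 3 libraries came from eyes injected intravitreally with saline at postnatal day 18 (Saline 1, Saline 2 and Saline 6) and 3 from eyes that received 20 ng of recombinant IL-27, a cytokine that signals through STAT proteins, on the same day (IL-27 4, IL-27 5 and IL-27 10), and all 6 retinas were frozen at postnatal day 20. The labels do not say whether each library came from a separate animal, so the p-values measure the spread between libraries.

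Photoreceptors draw glucose from the choroidal blood through the glucose transporter GLUT1 of the pigmented epithelium and turn much of it into lactate even when oxygen is present, a habit known as aerobic glycolysis. Hexokinases trap glucose in the cell, 6-phosphofructo-2-kinase sets the pace of the next control step, pyruvate kinase makes pyruvate, and lactate dehydrogenase turns pyruvate into lactate and back. Pyruvate dehydrogenase kinases switch off pyruvate dehydrogenase, and monocarboxylate transporters carry lactate between photoreceptors, glia and vessels.

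The 6 libraries held 8968 to 9965 nuclei each with 36678332 to 48260748 unique molecular identifiers (UMIs, 1 per captured RNA molecule), and 48360 nuclei entered the sums for 11 cell types named from marker genes: 14320 rods, 2925 cones, 9748 bipolar, 11726 amacrine, 478 horizontal and 2055 ganglion cell nuclei, 5144 Muller glia, 1445 microglia, 273 astrocytes, 151 endothelial nuclei and 95 pericytes. The 10 genes and their pathway relatives were kept out of the clustering, so they did not define these types. Levels are counts per 1000000 UMIs of a cell type (CPM), given as the mean ± SD over the 6 libraries, and a level is compared between cell types for 1 gene at a time. The UMI ratios of Hk2 to Hk1 and of Ldha to Ldhb are likewise compared between cell types. They are not read as which gene of a pair is the more abundant. Pairs of libraries shared 18 to 30 barcodes. Saline 2 and IL-27 5 stood apart from the other 4 libraries in carrying Xist, the RNA of the inactive X chromosome, and IL-27 5 had the lowest and IL-27 10 the highest level of the 10 rod marker genes in rods (10230 and 13190 CPM, against 11720 to 12370 CPM in the saline libraries). Outside photoreceptors the rod marker list reached 1.91% to 8.76% of its level in rods, a measure of rod RNA present in those nuclei, and that share too was lowest in IL-27 5 in 9 of the 10 types other than rods.

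The promoters of Hk2, Ldha, Slc2a1 and Slc16a1 are shown because the first pair belonged to the members that separated rods most from Muller glia and the second pair were both highest in endothelial nuclei. Each sequence holds the 250 bases before the transcription start in the RefSeq annotation of the mouse genome (build GRCm38.p6), 5' to 3' on the gene's strand, with every ACGTG or its reverse complement CACGT in capitals. ACGTG is the core of the site read by hypoxia-inducible factors, and where it overlaps its own reverse complement the run CACGTG is also an E-box. The Hk2 promoter lies at chr6:82774455-82774704 on the minus strand, the first of 2 Ldha promoters at chr7:46845554-46845803, the Slc2a1 promoter at chr4:119108495-119108744 and the Slc16a1 promoter at chr3:104638414-104638663, these 3 on the plus strand.
Hk2: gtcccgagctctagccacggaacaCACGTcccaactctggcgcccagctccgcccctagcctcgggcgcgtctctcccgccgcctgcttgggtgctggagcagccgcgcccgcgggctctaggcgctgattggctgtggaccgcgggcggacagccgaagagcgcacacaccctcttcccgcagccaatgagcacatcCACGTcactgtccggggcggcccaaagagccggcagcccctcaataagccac
Ldha: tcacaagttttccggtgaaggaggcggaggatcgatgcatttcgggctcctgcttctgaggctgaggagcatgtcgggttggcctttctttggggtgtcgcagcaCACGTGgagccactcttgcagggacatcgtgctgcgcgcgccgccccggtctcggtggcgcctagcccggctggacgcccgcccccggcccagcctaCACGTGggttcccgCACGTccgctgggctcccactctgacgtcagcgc
Slc2a1: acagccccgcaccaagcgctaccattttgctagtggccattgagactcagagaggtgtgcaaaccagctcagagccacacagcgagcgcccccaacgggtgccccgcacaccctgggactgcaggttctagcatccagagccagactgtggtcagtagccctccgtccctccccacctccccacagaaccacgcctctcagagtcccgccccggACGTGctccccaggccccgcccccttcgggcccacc
Slc16a1: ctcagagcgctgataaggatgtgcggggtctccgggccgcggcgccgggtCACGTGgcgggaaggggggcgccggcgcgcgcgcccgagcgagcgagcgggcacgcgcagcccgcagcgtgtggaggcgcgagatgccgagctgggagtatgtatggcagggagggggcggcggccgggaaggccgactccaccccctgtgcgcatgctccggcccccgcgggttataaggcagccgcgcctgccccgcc
The core stood in 7 of the 10 members in at least 1 listed promoter, with Hk1, Ldhb and Pdk1 lacking it. It stood in 16.6% of the 32851 mouse promoters of the same length. The first count is of genes, some with 2 listed promoters, and the second of single promoters, so the 2 are not like for like. The Ldha promoter held 5 matches over the 2 strands, the most of any member. The photoreceptor factor CRX reads TAATCC, which was found in either orientation in 6.25% of promoters and among the members only in the second promoter of Ldha. A match describes the letters and is neither a bound site nor a cause of any level below.

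The 10 genes did not share one cell type. Microglia had the highest mean level of 4 of them (Hk2, Ldhb, Pdk1 and Slc16a3), rods of 3 (Hk1, Pkm and Ldha), endothelial nuclei of Slc2a1 and Slc16a1, and horizontal cells of Pfkfb3. The leading type of all 10 genes was also the leading type when each nucleus was scaled on its own and when doublets were kept. These levels are descriptions and were not tested, apart from the comparisons of rods with Muller glia and of cones with rods given further on.

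**Figure D1:**
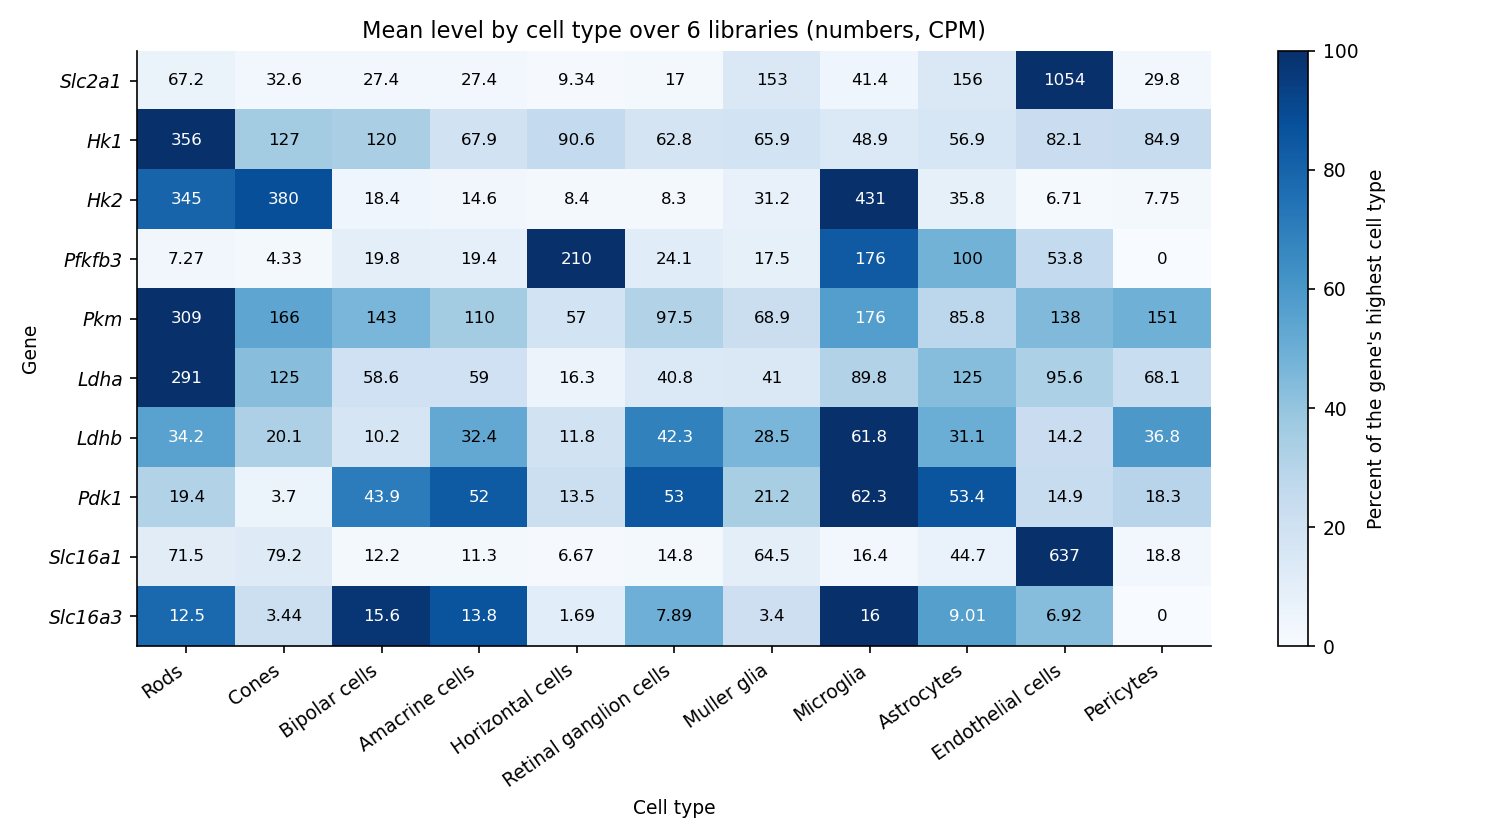
Mean level of each gene (rows) in each cell type (columns) over the 6 libraries, printed in CPM, with the colour giving the level as a percent of the gene's highest cell type. Hk1, Pkm and Ldha peak in rods at 356, 308.5 and 291 CPM, Slc2a1 and Slc16a1 peak in endothelial cells at 1054 and 637 CPM, and Pfkfb3 peaks in horizontal cells at 210 CPM.

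Slc2a1 encodes GLUT1, the transporter that takes glucose across the blood-retina barrier and into retinal cells. Endothelial nuclei held 924.5 CPM in Saline 1, 668.5 in Saline 2, 1082 in Saline 6, 1055 in IL-27 4, 932 in IL-27 5 and 1663 in IL-27 10, a mean of 1054 ± 332 CPM from 19 to 37 nuclei per library. The lowest of these libraries was above the highest astrocyte library (199 CPM), and the mean was 6.75 times the astrocyte mean of 156 ± 44.6 CPM and 6.89 times the Muller mean. Muller glia held 153 ± 18.9 CPM and overlapped astrocytes. Rods, at 67.2 ± 6.32 CPM, lay below every Muller library but overlapped the lowest astrocyte library, and cones held 32.6 ± 4.14 CPM. The lowest mean was that of horizontal cells, 9.34 ± 3.04 CPM.

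Hk1 and Hk2 encode hexokinases, the first enzymes of glycolysis, and the pair was divided differently among the cells. Hk1 was highest in rods at 356 ± 30.7 CPM, 2.81 times the cone mean of 127 ± 20.7 CPM, and the lowest rod library (324 CPM) was above the highest cone library (162 CPM). Cones and bipolar cells (120 ± 9.53 CPM) overlapped, and microglia were lowest at 48.9 ± 3.86 CPM. Hk2 was highest in microglia at 431 ± 61.8 CPM, followed by cones at 380 ± 48.8 CPM and rods at 345 ± 56.1 CPM, and these 3 types overlapped. Below them the Hk2 level dropped 9.61-fold to astrocytes (35.8 ± 17.9 CPM), with Muller glia next at 31.2 ± 6.18 CPM. In ganglion, horizontal, endothelial and pericyte nuclei the Hk2 level was 1.95% to 2.44% of that in rods, where the rod marker list stood at 1.91% to 7.47%. Bipolar and amacrine Hk2 stood at 5.34% and 4.23% of rods, against 4.63% and 3.41% for the rod list, so in these 6 types Hk2 was near or below the share of rod RNA. The Hk2 share in Muller glia was 9.06% of rods, against 3.96% for the rod list. In UMIs of the same library, the ratio of Hk2 to Hk1 was 8.80 ± 1.03 in microglia, 3.09 ± 0.741 in cones, 0.975 ± 0.185 in rods and 0.473 ± 0.0784 in Muller glia, and the library ranges of cones (1.97 to 3.93) and rods (0.64 to 1.18) did not meet.

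Pfkfb3 encodes the kinase that makes fructose 2,6-bisphosphate, the strongest activator of phosphofructokinase. Horizontal cells held 218 CPM in Saline 1, 210 in Saline 2, 227 in Saline 6, 225 in IL-27 4, 176 in IL-27 5 and 204 in IL-27 10. Their mean of 210 ± 18.8 CPM overlapped microglia at 176 ± 18.7 CPM, and microglia stood above astrocytes at 100 ± 31.1 CPM. Photoreceptors were at the other end, with rods at 7.27 ± 1.06 CPM and cones at 4.33 ± 2.53 CPM, so the horizontal cell mean was 28.9 times that of rods. No Pfkfb3 UMI was found among the 234131 UMIs of pericytes, which allows a level of up to 12.8 CPM on counting error alone.

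Pkm encodes pyruvate kinase of muscle and retina, and its 3' UMI counts do not separate the PKM1 and PKM2 splice forms. Rods led at 308.5 ± 30.3 CPM, 1.75 times the microglial mean of 176 ± 38.1 CPM, and microglia and cones (166 ± 16.7 CPM) overlapped. Muller glia, at 68.9 ± 10.7 CPM, and horizontal cells, at 57.0 ± 12.7 CPM, were lowest.

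Ldha and Ldhb encode the subunits of lactate dehydrogenase, the A form being the one usually tied to lactate production and the B form to lactate use. Ldha held 289 CPM in Saline 1, 289 in Saline 2, 294 in Saline 6, 287.5 in IL-27 4, 281 in IL-27 5 and 304 in IL-27 10 in rods. This spread, 291 ± 7.84 CPM, was narrow, and the rod mean was 2.32 times the astrocyte mean (125 ± 33.0 CPM), which overlapped cones (125 ± 23.1 CPM). Muller glia held 41.0 ± 7.16 CPM of Ldha, ganglion cells 40.75 ± 5.19 CPM and horizontal cells 16.3 ± 6.04 CPM. Ldhb was highest in microglia at 61.8 ± 8.50 CPM, then in ganglion cells at 42.3 ± 7.17 CPM, and lowest in bipolar cells at 10.2 ± 1.98 CPM. The ratio of Ldha to Ldhb UMIs within a library was 9.12 ± 2.88 in rods, 6.33 ± 1.60 in cones and 5.83 ± 0.744 in bipolar cells, all of whose libraries lay above the highest library of Muller glia (1.76), microglia (1.95) and ganglion cells (1.19). Astrocytes, with 33 Ldhb UMIs in all 6 libraries, had a ratio of 5.36 ± 4.43 (2.0 to 14.0) that overlapped rods, cones and bipolar cells. Muller glia had a ratio of 1.45 ± 0.171 and ganglion cells one of 0.975 ± 0.139.

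**Figure D2:**
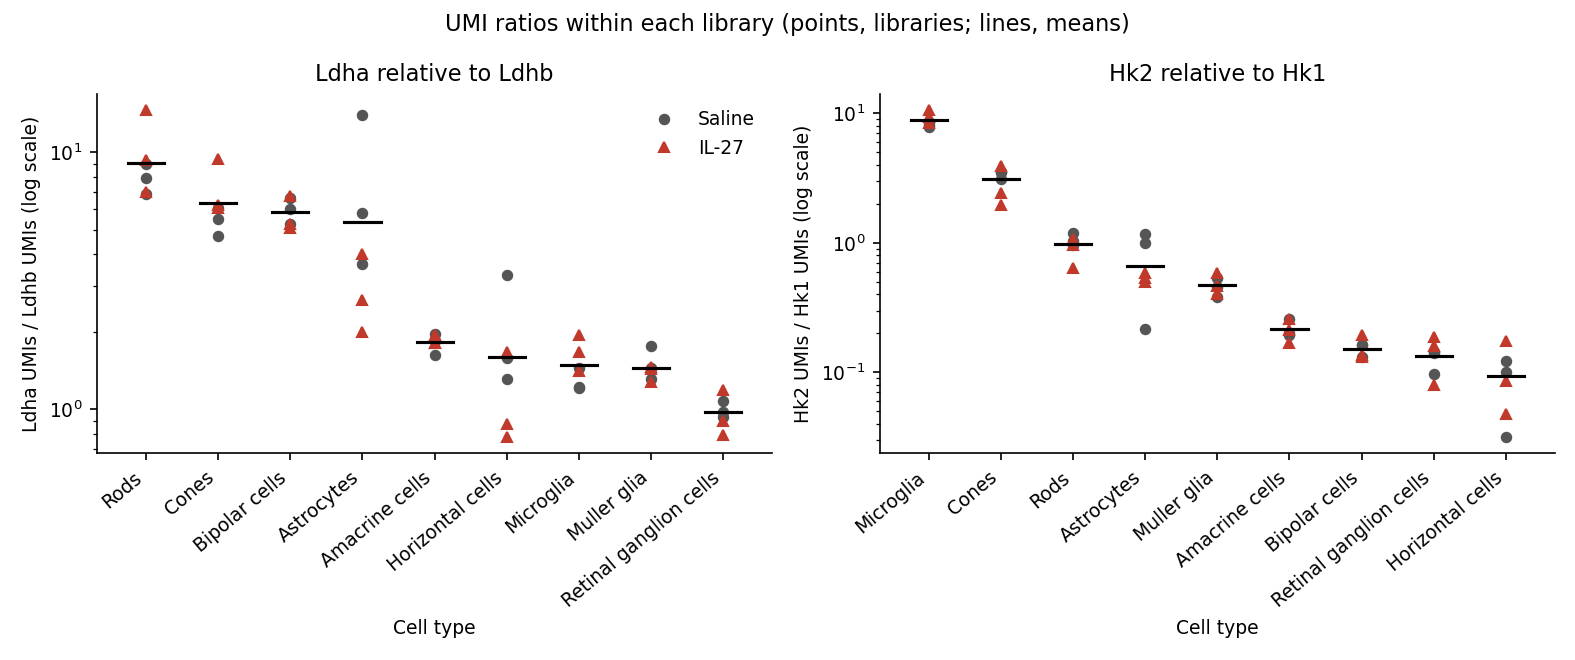
Ratio of Ldha to Ldhb UMIs (left) and of Hk2 to Hk1 UMIs (right) in each library on a log scale, by cell type, with saline libraries as circles, IL-27 libraries as triangles and the mean of the 6 as a line, for the 9 types with UMIs of both genes in every library. Rods, cones and bipolar cells lead in Ldha to Ldhb with means of 9.12, 6.33 and 5.83, and microglia and cones lead in Hk2 to Hk1 with means of 8.80 and 3.09.

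Pdk1 encodes a kinase that switches off pyruvate dehydrogenase. It was highest in microglia at 62.3 ± 8.39 CPM and close behind in astrocytes (53.4 ± 14.95 CPM), ganglion cells (52.95 ± 5.45 CPM), amacrine cells (52.0 ± 4.515 CPM) and bipolar cells (43.85 ± 5.38 CPM), with each neighbour in this order overlapping the next. Rods held 19.4 ± 2.10 CPM, and cones, from 29 UMIs in all 6 libraries, held 3.70 ± 2.47 CPM.

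Slc16a1 and Slc16a3 encode the lactate transporters MCT1 and MCT4. Slc16a1 in endothelial nuclei was 597 CPM in Saline 1, 616 in Saline 2, 887 in Saline 6, 742 in IL-27 4, 330 in IL-27 5 and 652 in IL-27 10. Every one of these libraries was above the highest library of any other type, pericytes included, and the mean of 637 ± 184 CPM was 8.05 times that of the next type, cones. Cones (79.2 ± 15.7 CPM), rods (71.5 ± 8.63 CPM) and Muller glia (64.5 ± 13.7 CPM) overlapped in turn, whereas bipolar cells held 12.2 ± 1.89 CPM and amacrine cells 11.3 ± 1.44 CPM. Slc16a3 was low in every type, with means up to 16.0 ± 8.02 CPM in microglia, 15.6 ± 1.87 CPM in bipolar cells, 13.8 ± 1.74 CPM in amacrine cells and 12.5 ± 1.76 CPM in rods, which overlapped in turn. It was 3.44 ± 1.52 CPM in cones, 3.40 ± 1.396 CPM in Muller glia and 0 in pericytes, where up to 12.8 CPM would not have been detected.

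Over the 11 cell types, Slc2a1 and Slc16a1 followed each other most closely among the members (Pearson r = 0.89 of mean log2 CPM, a description over 11 points that share libraries), then Pkm and Ldha (r = 0.828) and Pdk1 and Slc16a3 (r = 0.761). Among 12741 genes with at least 20 CPM in some type, the gene most like Pkm was Pgam1 (r = 0.959), which encodes the phosphoglycerate mutase 2 steps earlier in glycolysis. The gene most like Slc16a3 was Pfkl (r = 0.919), the liver-type phosphofructokinase. The nearest to Slc2a1 were Gsta4 (r = 0.977), Fbln5 (r = 0.965) and S1pr1 (r = 0.964), the nearest to Hk2 were Scand1 and Rbbp5 (r = 0.967 for both), the nearest to Ldha was Tmem167 (r = 0.954), and the nearest to Slc16a1 was Gm15614 (r = 0.945). Hk1 was nearest to Pcmtd2 (r = 0.936), Pdk1 to B3galnt1 (r = 0.931), Pfkfb3 to Reep5 (r = 0.907) and Ldhb to Gm16552 (r = 0.883).

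Rods and Muller glia were compared within libraries, a contrast that bears on the exchange of lactate between photoreceptors and glia. Rods held more Hk1 (log2 fold change 2.09 ± 0.06, SE), Hk2 (3.13 ± 0.10), Pkm (1.83 ± 0.06), Ldha (2.49 ± 0.075) and Slc16a3 (1.52 ± 0.20) than Muller glia, and less Slc2a1 (-1.52 ± 0.07), Pfkfb3 (-1.60 ± 0.13), Pdk1 (-0.48 ± 0.11) and Slc16a1 (-0.18 ± 0.08, a sign that turned with scaling by library totals). In rods against Muller glia, 9 of 10 members passed an adjusted p of 0.05 in the quasi-likelihood test of edgeR, adjusted by Benjamini-Hochberg over 14136 genes (5 higher, 4 lower), beside 81.5% of all genes tested (41.7% higher, 39.7% lower). The adjusted p was 2.22e-14 for Hk2, 1.15e-14 for Ldha and 3.31e-12 for Slc2a1 in that test. Ldha was higher in rods and Slc2a1 higher in Muller glia in all 6 libraries. The lactate dehydrogenase subunits parted here, Ldhb giving -0.08 with a 95% interval of -0.29 to 0.12. The direction of the small differences depends on the scaling: when library totals replaced TMM factors, a choice made after seeing the data, the median of all genes moved from 0.04 to 0.39 and the genes called went from 5900 higher and 5618 lower to 7707 higher and 4322 lower. Slc16a1 then turned to 0.16, Ldhb turned to 0.25 with an adjusted p of 0.0184, and Pdk1 was -0.14 with an adjusted p of 0.254 by the same edgeR test, while the other 7 members kept their direction and their call. Slc16a1 also kept its sign but lost its call in 8 other alternatives, among them DESeq2 and the fits without Saline 2, Saline 6, IL-27 4 or IL-27 5 (adjusted p of 0.052 to 0.182 in those 4 edgeR fits).

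Cones were then compared with rods. Cones held more Hk2 (0.36 ± 0.06) and Slc16a1 (0.36 ± 0.09), and less Slc2a1 (-0.81 ± 0.10), Hk1 (-1.28 ± 0.06), Pkm (-0.68 ± 0.06), Ldha (-1.01 ± 0.07), Ldhb (-0.53 ± 0.14), Pdk1 (-2.11 ± 0.25) and Slc16a3 (-1.63 ± 0.27). For cones against rods, 9 of 10 members passed the edgeR test at an adjusted p of 0.05 (2 higher, 7 lower), beside 54.3% of 12015 genes (27.1% higher, 27.2% lower). Pfkfb3 gave -0.53 with a 95% interval of -1.16 to 0.11. Both genes that were higher in cones had overlapping library ranges in rods and cones on the CPM scale, and each was higher in cones in 5 of 6 libraries. With library totals in place of TMM the median of all genes moved from -0.02 to -0.24 and the genes called went from 3254 higher and 3266 lower to 2132 higher and 5517 lower. Under those totals Hk2 gave 0.14 (adjusted p = 0.0376), Slc16a1 gave 0.15 (adjusted p = 0.139) and Pfkfb3 gave -0.74 (adjusted p = 0.0338) in the edgeR test. The rod marker list in cone nuclei reached 31.2% of its level in rods (27.6% to 33.2% over libraries), and its part in the cone levels was not tested.

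**Figure D3:**
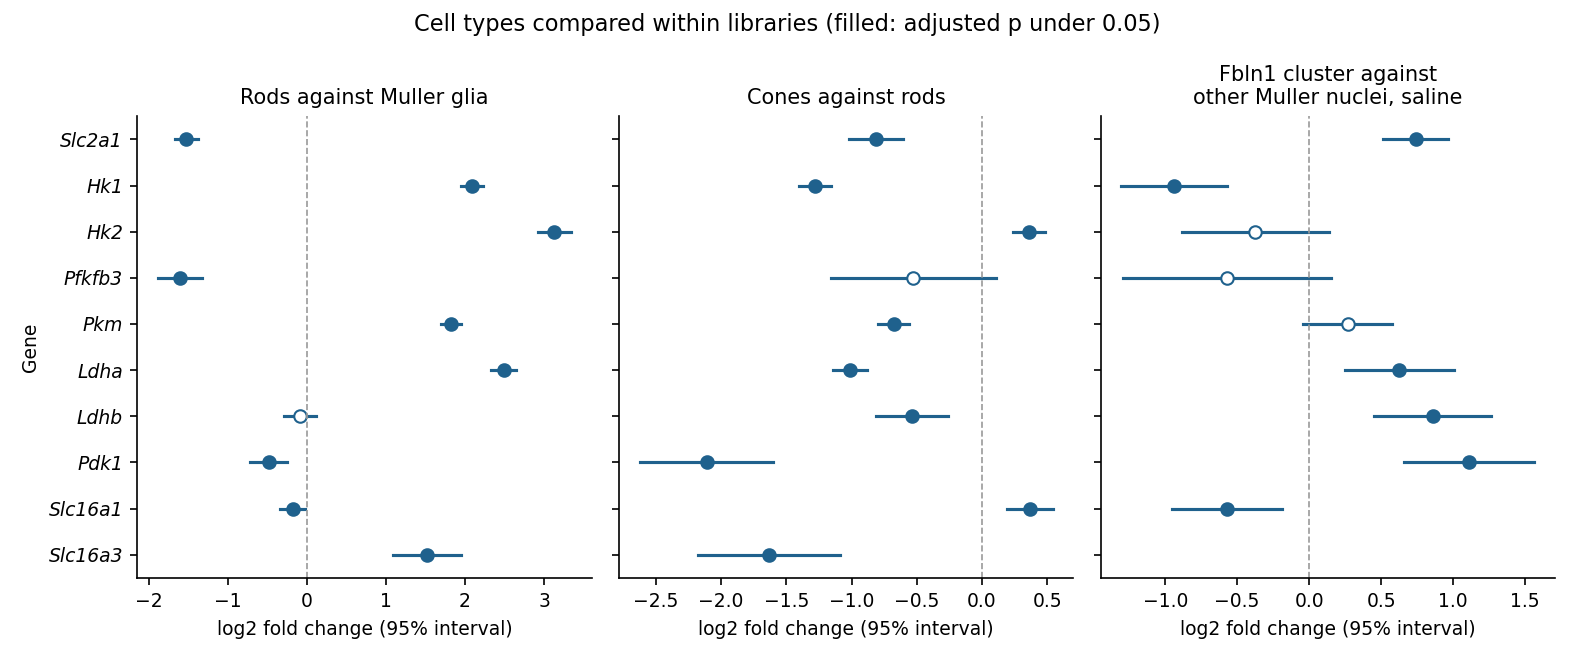
Log2 fold change (points) and 95% interval (lines) of the 10 genes for rods against Muller glia, cones against rods, and the Fbln1 cluster against other Muller nuclei of the saline libraries, with filled points where the adjusted p is under 0.05. Hk2 has the largest difference between rods and Muller glia (3.13), Pdk1 the largest between cones and rods (-2.11), and Slc16a3 was below the count filter in the last panel.

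The nuclei grouped as Muller glia held a cluster that differed from the rest, taken as the Muller subcluster highest in Fbln1, Frmpd4, Reln and Csmd3 and led by Fbln1, the gene of an extracellular matrix protein. These 4 genes come from the study of these same samples, so the choice of the cluster is not independent of them. In the saline libraries the cluster was lower than other Muller nuclei in all 9 Muller markers, including Rlbp1, which encodes a retinaldehyde-binding protein (42.1, 31.5 and 61.1 CPM against 406, 356 and 361 CPM). Glul, another of the 9, differed less (629, 680 and 856 CPM against 1060, 937 and 1320 CPM). Among the clusters of all nuclei, the 1 led by Fbln1 (657 nuclei) had 8 of 9 Muller markers above the mean of clusters. The marker rule therefore named it Muller glia. Its leading genes were Fbln1, 9330185C12Rik, Slc6a13, Fbn2, Fam129a, Optc, Slc7a11 and Col18a1, none of them a Muller marker, and most clusters behind that mean were neuronal. The identity of the Fbln1 cluster was not tested further, and it is called here by its leading gene. Its nuclei are part of the Muller glia sums except where values are given without it. It made up 20.0%, 21.7% and 11.1% of the Muller nuclei in Saline 1, Saline 2 and Saline 6 and 1.49%, 0.597% and 12.5% in IL-27 4, IL-27 5 and IL-27 10.

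Within the saline libraries the Fbln1 cluster held more Slc2a1 (261.5, 244 and 297 CPM against 138, 148 and 164.5 CPM in other Muller nuclei), a log2 fold change of 0.74 ± 0.11. It also held more Ldha (0.63 ± 0.18), Ldhb (0.86 ± 0.20) and Pdk1 (1.11 ± 0.22) and less Hk1 (-0.94 ± 0.18) and Slc16a1 (-0.57 ± 0.19). In this comparison 6 of the 9 members tested passed an adjusted p of 0.05 by edgeR's quasi-likelihood test (4 higher, 2 lower), beside 42.8% of 12790 genes (21.4% in each direction). Hk2, Pfkfb3 and Pkm gave -0.37, -0.57 and 0.27 with 95% intervals of -0.88 to 0.14, -1.29 to 0.15 and -0.04 to 0.58, and Slc16a3 did not reach the count filter. Ldha rested on Saline 6 (0.40 and adjusted p = 0.0968 by edgeR without it) and Slc16a1 on Saline 1 (-0.37 and adjusted p = 0.268 without it), and DESeq2 gave the pair adjusted p-values of 0.0984 and 0.11. A sum over Muller nuclei includes this cluster, and the part of its share in the differences between libraries was not tested. IL-27 values of the members named in Muller glia are given with and without the cluster.

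The comparison of IL-27 with saline asks whether the cytokine changed expression of these genes in any cell type at postnatal day 20. By the quasi-likelihood test of edgeR, adjusted by Benjamini-Hochberg, none of the 77 tests of a member in a cell type passed an adjusted p of 0.05, over 10 cell types, since pericytes had no member above the count filter. DESeq2 called none either, and 2 of the 77 tests (2.6%) had an unadjusted p under 0.05, against 4.13% of all genes tested. Few genes of any kind passed: 0.00754% in rods, 0.0286% in Muller glia, 0.029% in astrocytes, 0.00592% in amacrine cells and 0.0% in the other 6 types that held a member. A p that misses the threshold does not show that the groups were alike, and the intervals below give what the data allow.

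**Figure D4:**
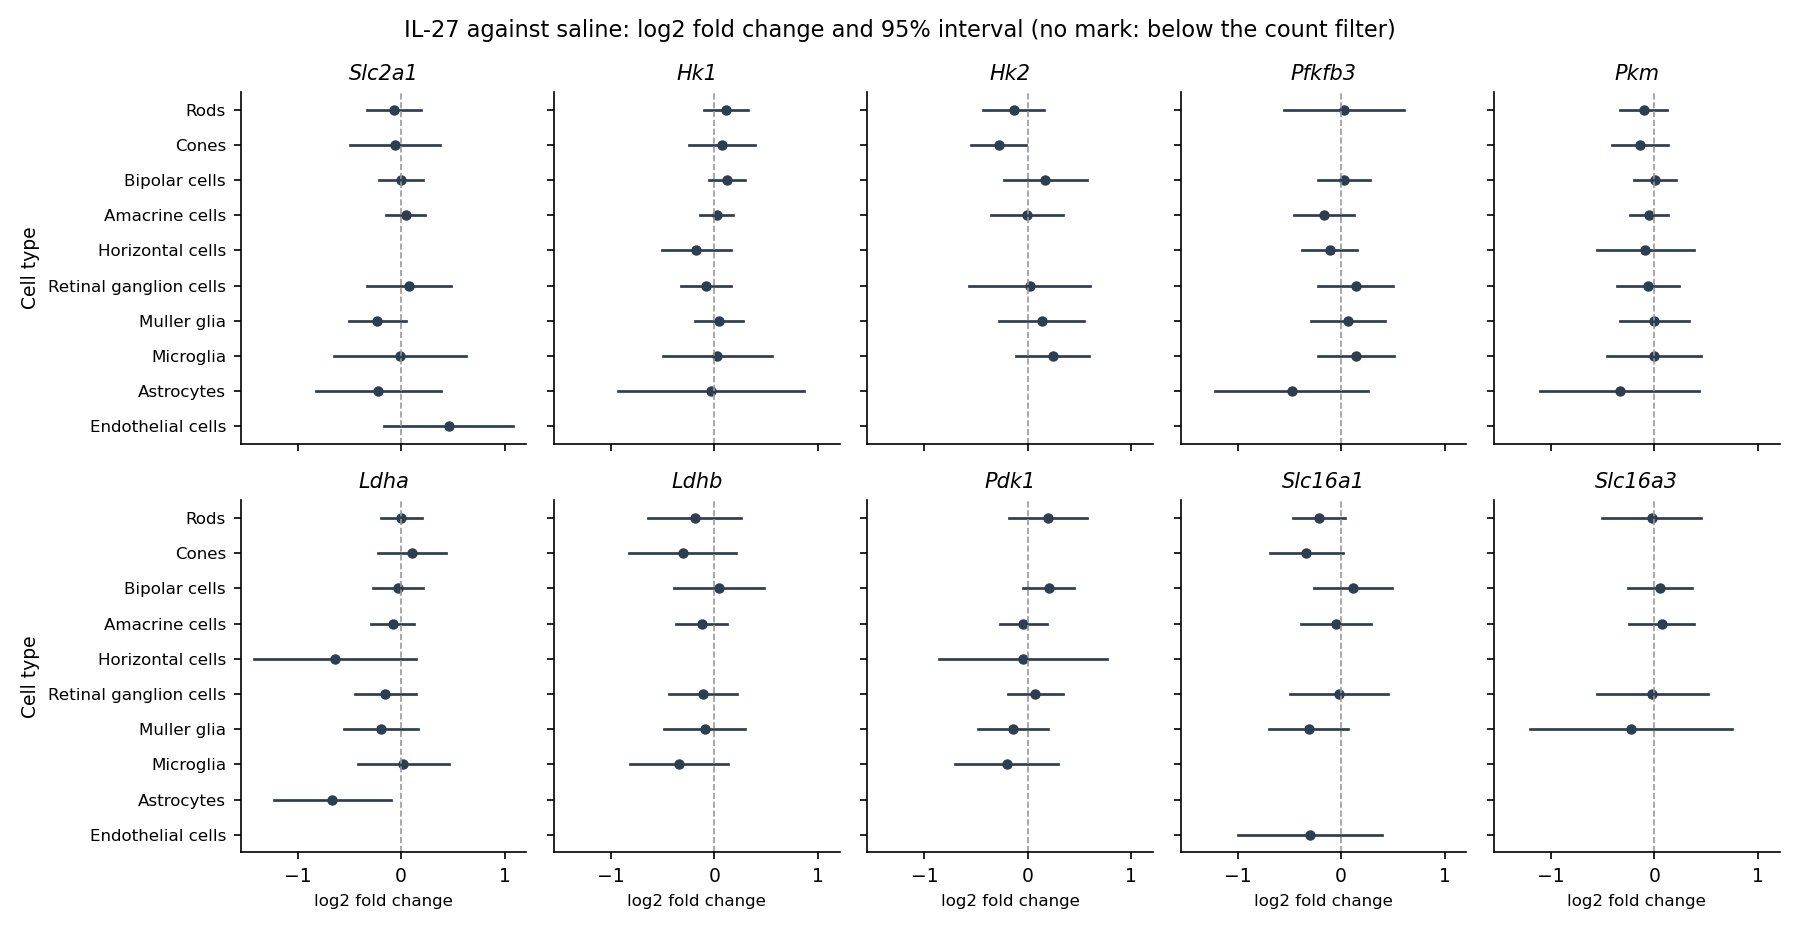
Log2 fold change of IL-27 against saline (points) with its 95% interval (lines) for each of the 10 genes in each cell type where it passed the count filter. The 2 intervals that do not reach 0 are those of Hk2 in cones (-0.28) and Ldha in astrocytes (-0.67), with neither past the adjusted threshold.

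In rods all 10 members were tested and their log2 fold changes lay between -0.22 and 0.20, with a median of -0.05 beside 0.00 over all genes. Ldha was the most closely fixed, at 0.00 with a 95% interval of -0.19 to 0.20, and its groups overlapped (289, 289 and 294 CPM with saline, 287.5, 281 and 304 CPM with IL-27). Hk1 gave 0.11 (-0.10 to 0.32) and Hk2 -0.14 (-0.43 to 0.16), where IL-27 5 held 243.5 CPM of Hk2 and the other 5 libraries 326 to 398 CPM. Without IL-27 5 the Hk2 value in rods was 0.03. Slc16a1 was the 1 member of rods whose groups did not overlap, with 79.3, 72.5 and 79.9 CPM under saline and 68.7, 56.3 and 72.3 CPM under IL-27, where groups of 8.52% of all genes in rods did not overlap. Its log2 fold change was -0.22 with a 95% interval of -0.47 to 0.03 (adjusted p = 0.999 by edgeR). The IL-27 library lowest in Slc16a1, Hk2, Pkm and Ldhb in rods, IL-27 5, was also lowest in the rod marker list, and the part of that difference was not tested. Pfkfb3, Pdk1 and Slc16a3 gave 0.03, 0.20 and -0.03, and the widest interval in rods, that of Pfkfb3, ran from -0.55 to 0.61.

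In cones 7 members passed the count filter. Hk2 measured 407, 423 and 422 CPM with saline and 387, 318 and 319.5 CPM with IL-27, so the groups did not overlap. The log2 fold change of Hk2 in cones was -0.28 with a 95% interval of -0.54 to -0.02 (adjusted p = 0.999 by edgeR). Ldhb measured 24.2, 20.8 and 21.9 CPM against 19.3, 16.6 and 17.9 CPM, also without overlap, and gave -0.31 (-0.82 to 0.21). In cones the groups of 9.29% of all genes did not overlap. Slc16a1 gave -0.34 (-0.69 to 0.02), with 84.6, 99.1 and 82.85 CPM under saline and 87.9, 59.2 and 61.3 CPM under IL-27, and Ldha gave 0.10 (-0.22 to 0.43).

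In Muller glia all 10 members were tested, and Slc2a1 was the 1 whose groups did not overlap, with 157, 166 and 177 CPM under saline and 150, 146 and 122 CPM under IL-27, where the groups of 13.6% of all genes in Muller glia did not overlap. Its log2 fold change was -0.23 with a 95% interval of -0.50 to 0.04 (adjusted p = 0.644 by edgeR). Without the Fbln1 cluster, which held more Slc2a1 and was a smaller share of 2 IL-27 libraries, the value was -0.15 (-0.46 to 0.17), and 138, 148 and 164.5 CPM overlapped 151, 147 and 105 CPM. The lowest Slc2a1, with and without the cluster, was in IL-27 10, where the cluster made up 12.5% of Muller nuclei. Slc16a1, at 65.4, 62.1 and 88.7 CPM against 67.15, 48.9 and 54.9 CPM, gave -0.31 (-0.70 to 0.07) with the cluster and -0.37 (-0.73 to -0.02) without it. Ldha gave -0.19 (-0.55 to 0.16) with the cluster and -0.10 (-0.44 to 0.24) without it, Ldhb -0.10 and 0.04, and Pdk1 -0.15 and -0.01. Pkm gave a value of 0.0 with an interval of -0.33 to 0.33 with the cluster and -0.02 (-0.31 to 0.26) without it, and the highest of its Muller libraries, IL-27 10 at 87.0 CPM, was also highest in rod markers (724 CPM, against 449 to 517 CPM with saline).

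In microglia 8 members were tested. Ldhb measured 67.05, 74.1 and 66.2 CPM with saline and 55.1, 54.35 and 53.95 CPM with IL-27, without overlap, where groups of 7.93% of all genes in microglia did not overlap, and it gave -0.34 (-0.81 to 0.13). Hk2, which microglia held at the highest level of any type, measured 433, 421 and 326 CPM against 506.5, 420 and 477 CPM and gave 0.24 (-0.11 to 0.59). Pfkfb3 gave 0.15 (-0.22 to 0.51) and Ldha 0.02 (-0.42 to 0.46).

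In astrocytes, from 273 nuclei, Ldha measured 177, 136 and 145 CPM with saline and 91.55, 103 and 100 CPM with IL-27, so the groups did not overlap, where groups of 9.26% of all genes in astrocytes did not overlap. Its log2 fold change of -0.67 (-1.23 to -0.10) was the farthest from 0 of the 77, with an adjusted p of 0.984 by edgeR. In endothelial nuclei Slc2a1 gave 0.46 (-0.17 to 1.09) and Slc16a1 -0.30 (-0.998 to 0.39), with overlapping groups for both. In bipolar, amacrine, ganglion and horizontal cells the groups of every member tested overlapped, where 8.69%, 8.11%, 8.62% and 9.69% of all genes had groups apart, as against 7.49% in endothelial nuclei.

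**Figure D5:**
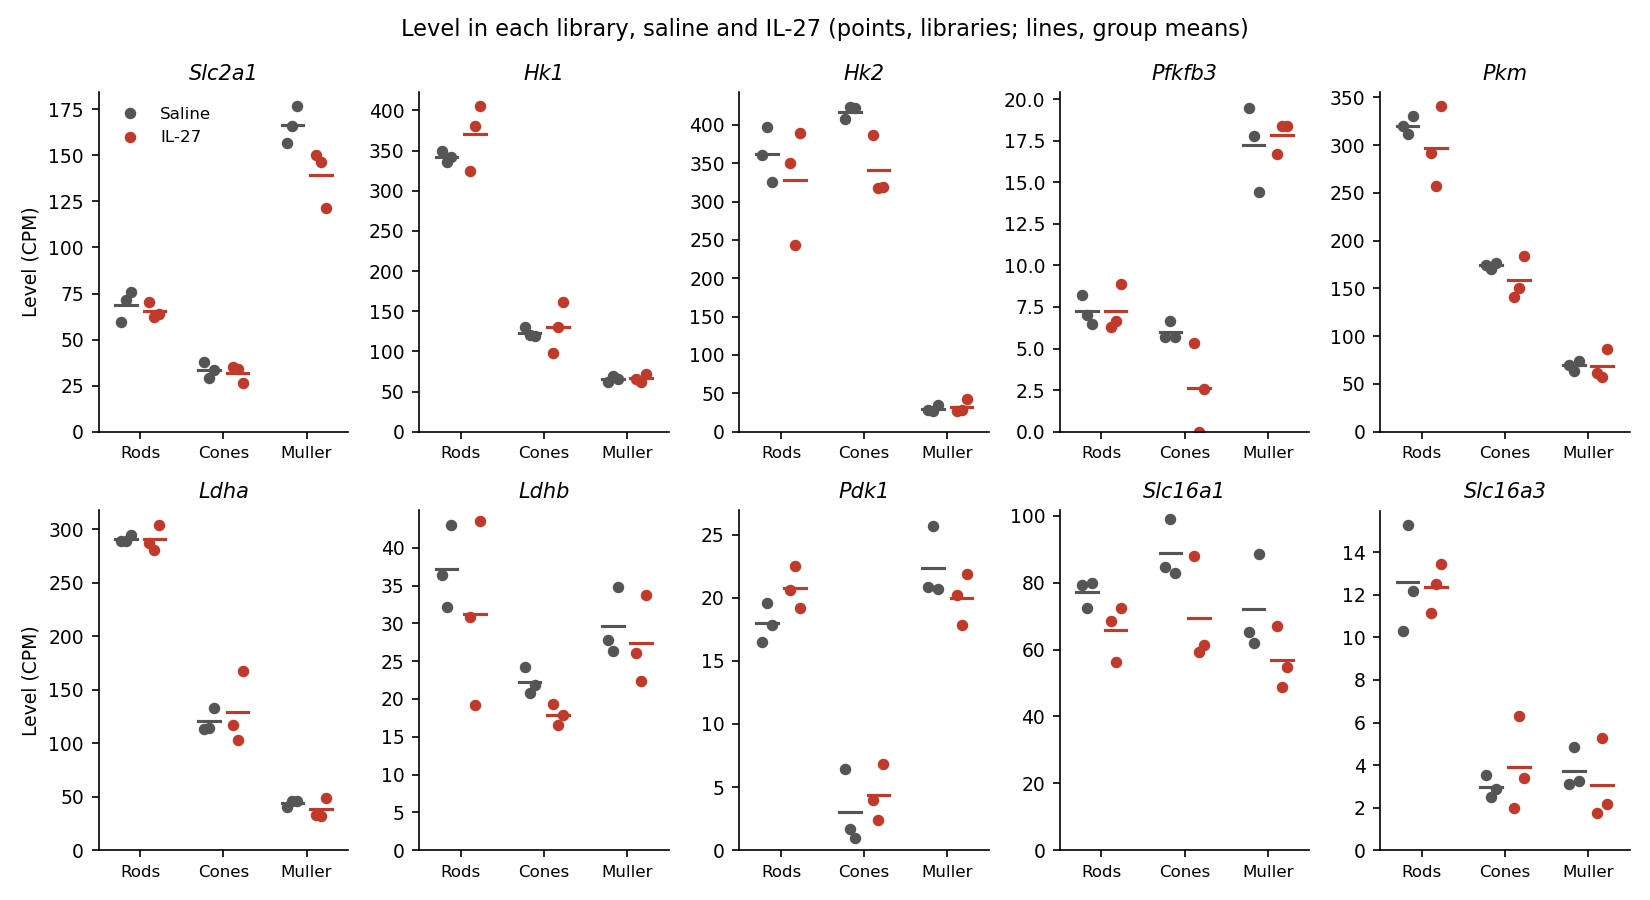
Level of each gene in CPM in rods, cones and Muller glia, with saline libraries in grey, IL-27 libraries in red and lines at the group means. The groups are apart for Slc16a1 in rods, Hk2 and Ldhb in cones and Slc2a1 in Muller glia and overlap for the other members that passed the count filter.

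The effect of IL-27 was also compared between cell types. No member passed an adjusted p of 0.05 in edgeR's test of the interaction of cell type and treatment, for rods with Muller glia or for cones with Muller glia, beside 0.164% and 0.31% of all genes. DESeq2 called none either, and 0 and 1 of the 10 members had an unadjusted p under 0.05, beside 6.82% and 6.01% of all genes. The 1 was Hk2 in cones with Muller glia, whose difference in log2 fold change was -0.42 with a 95% interval of -0.82 to -0.02 (adjusted p = 0.812 by edgeR), and -0.38 (-0.75 to 0.00) without the Fbln1 cluster. Between rods and Muller glia, Slc2a1 gave a difference of 0.17 (-0.12 to 0.46) with the cluster and 0.12 (-0.18 to 0.42) without it. Slc16a1 gave 0.07 (-0.26 to 0.40) with the cluster and 0.14 (-0.17 to 0.45) without it.

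The rest of the pathway was read from 8 lists of 95 genes, 94 of them in the tables. None of the list genes passed an adjusted p of 0.05 for IL-27 against saline by edgeR in any cell type. An unadjusted p under 0.05 was found for 11 of 49 list genes in horizontal cells (4.91% of all genes), 10 of 79 in Muller glia (9.1%), 4 of 27 in astrocytes (4.0%) and at most 3 in each other type. In horizontal cells these were 3 of 11 glycolytic steps (list median -0.23), 3 of 9 for pyruvate entry (-0.26) and 3 of 12 hypoxia genes (-0.17). The others were 1 of 7 glycogen genes (0.21) and 1 of 4 pentose phosphate genes (-0.16). The 5 members tested in horizontal cells lay between -0.64 and -0.04. Without the Fbln1 cluster the Muller count was 6 of 77. The 3 smallest p-values in Muller glia were those of Slc2a13, a proton-coupled inositol carrier, Ndrg1 and Vegfa, the angiogenic growth factor, none past the adjusted threshold. Slc2a13 gave -0.98 with the cluster and -0.29 (-0.87 to 0.30) without it, and outside the cluster its groups overlapped. Ndrg1, at 270.0 CPM in the cluster and 43.3 CPM in other Muller nuclei of the saline libraries, gave -0.46 with the cluster and 0.21 (-0.09 to 0.52) without it, and Vegfa gave -0.42 and -0.55 (-0.78 to -0.31). Between rods and Muller glia, 41 list genes were higher in rods and 30 lower of 80 tested, beside 41.7% and 39.7% of all genes. The counts of the single lists that follow are read against the same shares. The genes of the remaining glycolytic steps were mostly higher in rods (11 higher and 5 lower of 16, median log2 fold change 1.29 beside 0.04 over all genes). Among them were Aldoa, the aldolase that the files list under 2 gene identifiers (1.68 and 5.28, both uncertain since their reads may be split), and the enolases Eno3 (1.62) and Eno2 (1.59). Each Aldoa identifier counts once in these numbers and in the totals of 41 and 80, and in any other list count where both were tested. Hkdc1, which encodes a hexokinase-like protein, was lower in rods (-4.75), as was Eno1 (-0.76). Glycogen genes were mostly higher in Muller glia (3 higher and 8 lower of 11, median -0.97), including the branching enzyme Gbe1 (-3.46) and the phosphorylases Pygl (-2.77) and Pygb (-2.48). The list of Pfkfb3 relatives gave 2 higher and 1 lower of 3 tested, so 1 of them went the same way as Pfkfb3. The 2 higher in rods than in Muller glia were Pfkfb2 (2.64) and Tigar, a fructose bisphosphatase (2.11). Of the transporters, Slc2a13 (3.79) and Slc16a6 (3.13) were higher in rods and Slc16a9 (-4.65) was higher in Muller glia. Pentose phosphate genes gave 4 higher and 0 lower of 7 (median 0.37), led by Taldo1 (1.08), and the list on pyruvate entry gave 7 higher and 4 lower of 13 (median 0.46), with Pdk3 at 0.78 and Pdk2 at -1.24.

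Between cones and rods, 10 list genes were higher and 36 lower in cones of 73 tested, beside 27.1% and 27.2% of all genes. Of the glycolytic steps 1 was higher and 11 lower of 14 (median -0.69 beside -0.02 over all genes), the lowest being the phosphofructokinases Pfkl (-1.37) and Pfkp (-1.07). Hif1a (-1.75) and Epas1 (-4.26), which encode the oxygen-regulated subunits of the hypoxia-inducible factors, were both lower in cones, whereas Vegfa was higher (1.39). Pygm, the muscle form of glycogen phosphorylase, was higher in cones than in rods (2.69), as was Pdha1, a subunit of pyruvate dehydrogenase (1.04).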

How the data were processed

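Nuclei were isolated from frozen retinas and sequenced as 6 single-nucleus libraries, 1 per sample, in 2 treatment groups of 3 taken from the submitters' labels. The authors deposited filtered tables of raw UMI counts per gene and nucleus, made with Cell Ranger (9.0.1 in the submitters' processing notes, 8.0.1 in the header of the tables); Seurat 5.2.1 is also named there. The genome build was not given in the sources used here, so the promoter coordinates are those of RefSeq on GRCm38.p6. Values below rest on these counts alone; nothing normalized was deposited.

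Barcodes with at least 500 UMIs, at least 200 genes and at most 5% mitochondrial UMIs were kept (56205 of 56634). In each library the nuclei with the highest Scrublet doublet scores were removed, 4006 in all. Their number was set by an assumed doublet rate of 8%, lowered for expected doublets of like nuclei. This left 52199 nuclei, 8239 to 9162 per library, with median depths of 2782 to 3787.5 UMIs. Nuclei were clustered with scanpy 1.11.5 (Louvain, resolution 0.25, 52 clusters) without the members and pathway lists. Clusters were named from marker lists, each name needing at least 3 markers, and 3 mixed clusters with 469 nuclei were set aside. Nuclei whose log2 total lay over 2 scaled median absolute deviations away from their type's median were not summed. Counts were summed per library and cell type, filtered at 10 counts, scaled with TMM and tested by edgeR 4.0.16 (quasi-likelihood, R 4.3.3) over all genes, with Benjamini-Hochberg adjustment at 0.05. Cell types were compared with the library as a block. The smallest p an exact permutation test of 3 against 3 libraries can give is 0.1. Intervals are 95% intervals of the fitted log2 fold change. The fit was run on simulated counts with 200 genes changed by 1.5 on the log2 scale, of which 64.5% (IL-27 in endothelial nuclei) to 96.5% (rods against Muller glia) were recovered. Smaller changes were not simulated, and every IL-27 change of a member was smaller (-0.67 at the farthest).

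The members and lists were chosen with earlier results of these data known. Named genes were the 10 members, from each list the 3 genes of smallest p for IL-27 in rods, cones and Muller glia and up to 4 called genes per direction between cell types, and the 3 genes most alike each member, of which the report gives a part. Alternatives were DESeq2 1.42.0, other scaling, filters, doublets, resolution and nuclei, Muller glia without the Fbln1 cluster, each library left out, and 2 added after seeing the data (Xist as a covariate, and library totals between cell types).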

Additional observations from a re-analysis of the deposited data

Results flagged for a closer look

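2 genes of the pathway lists passed the test of a difference in the IL-27 effect between cell types, and neither is one of the 10 members. For rods with Muller glia this was 1 of 81 list genes tested, beside 0.164% of all genes. For cones with Muller glia it was 1 of 79, beside 0.31% of all genes. Slc2a13, an inositol carrier of the glucose transporter family, differed between rods and Muller glia by 1.14 on the log2 scale (95% interval 0.69 to 1.59, adjusted p = 0.034 by edgeR's quasi-likelihood test). It measured 13.04, 18.65 and 12.2 CPM with saline and 7.62, 7.36 and 6.86 CPM with IL-27 in Muller glia, and 170, 195 and 198 CPM against 193, 252 and 181 CPM in rods. Slc16a10, an aromatic amino acid carrier of the monocarboxylate family, differed between cones and Muller glia by 2.59 (1.52 to 3.66, adjusted p = 0.0183 by edgeR), with 22.0, 36.9 and 10.9 CPM against 1.47, 1.05 and 11.54 CPM in Muller glia.

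Both genes were high in the Fbln1 cluster, whose share of Muller nuclei was 11.1% to 21.7% with saline and 0.597% to 12.5% with IL-27. In the saline libraries Slc16a10 gave 112, 163 and 40 UMIs in that cluster and 1, 5 and 0 UMIs in the other Muller nuclei, and Slc2a13 measured 45.9, 61.8 and 46.6 CPM against 7.12, 8.65 and 8.70 CPM. Without the cluster the differences were 0.47 for Slc2a13 and -1.38 for Slc16a10 (adjusted p = 0.953 and 0.994 by edgeR). Under DESeq2 the adjusted p of Slc2a13 was 0.2, and Slc16a10 had no adjusted p. By edgeR, Slc2a13 also missed the threshold without Saline 1, Saline 2 or IL-27 5 (adjusted p of 0.378, 0.284 and 0.219), and Slc16a10 without Saline 1, Saline 2 or IL-27 4 (0.14, 0.406 and 0.196).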

How the results depend on the processing

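No paired analysis was possible because the groups share no replicate number (Saline 1, 2 and 6, IL-27 4, 5 and 10). No member was called for IL-27 in any of the 10 cell types, or in either interaction, under any alternative run. Of 1152 alternative values of the 77 member changes, 9 turned sign by more than 1 SE, none of them called. Leaving out 1 library at a time gave -0.267 to 0.0323 for Hk2 and -0.505 to 0.0227 for Ldhb in rods and -0.517 to 0.0311 for Slc16a1 in endothelial nuclei, turned by IL-27 5, and, turned by IL-27 10, -0.0918 to 0.232 for Hk1 and -0.0928 to 0.226 for Ldha in cones, -0.0975 to 0.309 for Hk2 and -0.0957 to 0.0589 for Pkm in bipolar cells and -0.0619 to 0.262 for Hk2 in Muller glia. Hk2 in bipolar cells was -0.0495 with all nuclei summed. The cause was not tested.

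List genes called for IL-27 in Muller glia were 0, but 3 with no count filter and 0 to 2 with 1 library left out. The 1 list gene called in the interaction of rods with Muller glia became 0 under DESeq2 and without the Fbln1 cluster, 2 with no filter and 0 to 3 with 1 library left out; for cones with Muller glia the values were 0, 0, 2 and 0 to 2. These alternative counts are given without the share of all genes called under the same settings and are not read as a result about the lists. Slc16a10 turned to -1.38 without the cluster.

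Between cell types, 313 of 331 alternative values kept direction and call. Scaling by library totals turned Slc16a1 (0.16) and Ldhb (0.25) in rods against Muller glia. The Xist covariate and that scaling were chosen after seeing the data. Depth limited endothelial nuclei and pericytes, where 1 UMI is 9.71 to 34.1 CPM, so differences there may not be detectable.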

Other observations

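Members also varied among clusters of 1 cell type, all of which were formed without these genes; the values are sums over libraries and were not tested. Among cone clusters, the 1 led by the short-wavelength opsin gene Opn1sw, Gm15997 and Wdr95 (269 nuclei) held the lowest Slc16a1, 34.0 CPM. The highest, 86.6 CPM, was in the cluster led by 5430419D17Rik, Opn1sw and Plcz1. Opn1sw was thus a leading gene of the clusters at both ends. The cone clusters drew unequally on the libraries, 1 of them holding 366 nuclei of Saline 2 and 442 of IL-27 5 and at most 1 of any other. Saline 2 and IL-27 5 are the libraries that carried Xist. The cluster led by 5430419D17Rik held 21 and 23 nuclei of them, against 214 to 265 of each other library. The part of this split in the cluster values was not tested. The Slc16a1 counts of the cluster led by Opn1sw, Gm15997 and Wdr95 were 3, 5 and 3 UMIs with saline and 4, 1 and 6 UMIs with IL-27. Its Hk2 measured 522, 408 and 473 CPM with saline and 490.0, 446 and 357 CPM with IL-27, above the other cone clusters in some libraries and below at least 1 of them in Saline 2 and IL-27 10.

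Endothelial nuclei fell into a cluster led by Gm609, Bmx and Fbln5 (49 nuclei) and one of 102 nuclei, whose leading genes are hemoglobin genes. The first held 1540 CPM of Slc2a1 and the second 868 CPM, in that order in 5 of 6 libraries (1050 against 1090 CPM in Saline 6). Slc16a1 was lower in the first in all 6 libraries, from 2 to 6 UMIs per library there (231, 584 and 526 CPM with saline and 484, 170 and 92.2 CPM with IL-27 in the first, 717, 620 and 1010 CPM and 792, 414 and 959 CPM in the second).

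Among 21 amacrine clusters Slc16a3 ranged from 3.57 to 39.1 CPM, Pfkfb3 from 6.10 to 52.0 CPM and Ldhb up to 79.8 CPM. The cluster led by Ankfn1, Cpne4 and Col6a4 had the highest Slc16a3 and Ldha (84.8 CPM) and the lowest Ldhb, and the cluster led by Glra3, Cdh22 and Chrm2 had the highest Ldhb and the lowest Slc16a3 and Ldha (35.7 CPM). Pkm ranged only from 84.5 to 155 CPM in the same clusters.

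In the Fbln1 cluster, 20 list genes were higher and 16 lower of 76 tested against other Muller nuclei, beside 21.4% of all genes in each direction, and the hypoxia list gave 3 higher and 5 lower of 17. Among these Ndrg1 and Egln3, both known targets of hypoxia-inducible factors, were higher than in other Muller nuclei of the saline libraries (270.0 against 43.3 CPM with a log2 fold change of 2.54, and 19.6 against 0.62 CPM with 4.74), and Vegfa was lower (-1.52). Tkt, the transketolase of the pentose phosphate pathway, was higher (1.44), and Hkdc1 was lower (-3.99). All 5 passed an adjusted p of 0.05 by edgeR.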
